A study of Mus musculus with 2 samples.

Results

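Interferon-induced genes and the interferon regulatory factors (IRFs) were examined in colon mucosal scrapings from Hif-2αΔIE and Hif-2αF/F mice. Members were chosen by gene symbol. They were the genes named Ifit, Ifi, Oas, Irf or Gbp with a number, those beginning Ifitm, Oasl, Irgm or Mx with a number, and 14 genes listed singly, among them Usp18, Rsad2 and the chains of the interferon receptors. The rule matched 100 probe sets that carry a single gene symbol, which give 69 of the 18193 genes measured. A further 10 probe sets carry a matching symbol together with others and were assigned to no gene, which left Isg15, the gene of a ubiquitin-like interferon-induced protein, without a value of its own. The probe set that Isg15 shares with a gene model read 9.43 in ΔIE and 8.61 in F/F.

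Both groups were C57BL/6 mice given 3% dextran sulfate sodium (DSS), which injures the colonic lining, for 3 days, so neither is free of injury. Hif-2αΔIE mice are read here, from knowledge of this model and not from the labels, as lacking Epas1 (which encodes the hypoxia-inducible factor HIF-2α) in the intestinal epithelium, and Hif-2αF/F mice as carrying the loxP-flanked gene undeleted; the promoter that drives Cre is not named in the labels. The protocol gives an age of 6 to 8 weeks and the design text 7 weeks, with 5 ΔIE and 6 F/F mice, but there is 1 array per genotype, and the sources used here do not say whether an array holds RNA of 1 mouse or of a pool. No test between genotypes was therefore possible, no standard error can be given, and each difference below compares these 2 arrays.

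Values are log2 expression on an Affymetrix array after robust multi-array averaging (RMA), differences are ΔIE minus F/F on that log2 scale, and a fold is 2 raised to the size of the difference. A gene took its brightest probe set, and genes below 6.11, the median over all probe sets, on both arrays were set aside, which left 60 of the 69 members and 11899 genes in all. Because a gene can pass through its higher array alone, counts over the kept members describe them and support no direction. The 4 control probe sets for Cre recombinase read 7.86 to 10.01 on the ΔIE array, against 2.92 to 4.22 on the F/F array. Epas1 read 11.77 in ΔIE and 11.90 in F/F by its brighter probe set, and 7.15 in ΔIE and 6.98 in F/F by the other; where these probes lie relative to the deletion was not established here. Marker genes of colonic epithelium were abundant on both arrays: Epcam read 13.89 in ΔIE and 13.80 in F/F, and Vil1, which encodes the brush border protein villin, read 12.45 in ΔIE and 12.19 in F/F. In such bulk tissue, fewer cells of a type and less RNA per cell cannot be told apart.

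Interferons are secreted proteins that warn neighbouring cells of infection. Type I and type III interferons act through JAK kinases and STAT factors that, with IRF9, bind the interferon-stimulated response element (ISRE) of antiviral genes, while interferon-γ, made by T and NK cells, acts through a STAT dimer that binds the gamma-activated site (GAS). In the colon the pathway is kept active at a low level by the microbiota and is engaged by epithelial and immune cells alike.

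The promoters below belong to the members that carry the contrasts described further on: Ifit1, Oas3 and Rsad2 were higher on the ΔIE array, while Gbp2, Ifi213 and Ifi202b were lower. Each is the 250 bases before the annotated start, 5′ to 3′ on the gene's own strand, from RefSeq on GRCm38.p6. Capitals mark matches, on either strand, to an ISRE core (GAAA, any 2 bases, GAAA) or, in Ifi202b alone among these, to a GAS core (TTC, any 3 bases, GAA). The windows are chr19:34640639-34640888, plus strand for Ifit1, chr5:120777660-120777909, minus strand for Oas3, chr12:26456453-26456702, minus strand for Rsad2, chr3:142620413-142620662, plus strand for Gbp2, chr1:173599273-173599522, minus strand for Ifi213 and chr1:173982845-173983094, minus strand for Ifi202b.
Ifit1: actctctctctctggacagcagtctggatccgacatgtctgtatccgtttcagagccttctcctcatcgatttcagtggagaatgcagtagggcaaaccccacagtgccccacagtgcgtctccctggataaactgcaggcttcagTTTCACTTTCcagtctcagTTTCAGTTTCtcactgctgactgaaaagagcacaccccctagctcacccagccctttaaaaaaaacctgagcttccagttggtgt
Oas3: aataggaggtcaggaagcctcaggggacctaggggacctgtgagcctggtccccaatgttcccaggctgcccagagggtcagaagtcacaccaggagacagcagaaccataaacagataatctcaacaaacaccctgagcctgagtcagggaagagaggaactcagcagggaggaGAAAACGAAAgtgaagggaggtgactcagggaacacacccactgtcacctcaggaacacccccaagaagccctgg
Rsad2: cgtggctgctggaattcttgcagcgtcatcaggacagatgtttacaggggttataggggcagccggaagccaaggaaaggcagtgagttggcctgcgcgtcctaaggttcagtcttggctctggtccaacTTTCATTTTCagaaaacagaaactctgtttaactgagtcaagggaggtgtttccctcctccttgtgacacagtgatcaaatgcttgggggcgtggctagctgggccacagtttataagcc
Gbp2: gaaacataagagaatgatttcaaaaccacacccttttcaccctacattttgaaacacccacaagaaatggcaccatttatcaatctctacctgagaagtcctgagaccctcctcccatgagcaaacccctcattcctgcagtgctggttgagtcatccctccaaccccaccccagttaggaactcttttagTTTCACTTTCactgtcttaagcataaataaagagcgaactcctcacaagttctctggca
Ifi213: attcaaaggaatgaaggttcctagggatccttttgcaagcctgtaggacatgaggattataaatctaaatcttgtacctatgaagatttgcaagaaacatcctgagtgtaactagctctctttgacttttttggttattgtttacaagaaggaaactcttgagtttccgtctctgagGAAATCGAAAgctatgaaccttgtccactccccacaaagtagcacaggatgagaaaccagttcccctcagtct
Ifi202b: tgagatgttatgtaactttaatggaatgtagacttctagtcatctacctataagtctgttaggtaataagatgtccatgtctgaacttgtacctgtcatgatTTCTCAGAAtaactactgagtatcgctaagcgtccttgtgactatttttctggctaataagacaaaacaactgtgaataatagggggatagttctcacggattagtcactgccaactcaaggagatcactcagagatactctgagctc

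An ISRE core stood in a window of 19 of the 47 kept members that have any annotated window (40.4%), against 3.21% of 9584 kept genes of all kinds. A GAS core stood in 14 of the 47 (29.8%), against 7.06%. Such a match is a string of letters and no measured binding site. The ISRE core was found in 4 of 5 IFIT genes and in 4 of 4 GBP genes with a window, so families that lie on opposite sides of 0 below both hold it. Among members with the core, 9 were above 0 and 10 below, with a median difference of -0.06, and among those without it 11 were above 0 and 17 below, with a median of -0.16. The promoter of Ifit1 and an annotated promoter of Ifit1bl2 are arranged head to head on chromosome 19, with 145 bases between their starts (chr19:34640744-34640888). Both ISRE cores printed for Ifit1, beginning 104 and 85 bases before its start, therefore also lie in that window of Ifit1bl2. A further annotated window of Ifit1bl2 (chr19:34629812-34630061) holds no ISRE core.

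Over all members, the median difference between the arrays was close to 0 and to that of all genes. Of the 60 kept, 27 were above 0 and 33 below, and the median difference was -0.06, against 0.02 over all genes kept, of which 46.5% were below 0. At 2-fold, 2 members were higher on the ΔIE array, where 1.15% of all genes kept were, and 7 were lower, where 5.30% of all genes kept were. With no filter the counts were 2 and 8 of 69 members, where 0.797% and 3.72% of all genes measured were at least 2-fold higher and lower. Families within that median lay on opposite sides of 0. The IFIT, OAS and antiviral effector genes sat mainly above 0, and the PYHIN, IFITM and GBP genes below it, as the plots of levels and of differences by family show.

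**Figure D1:**
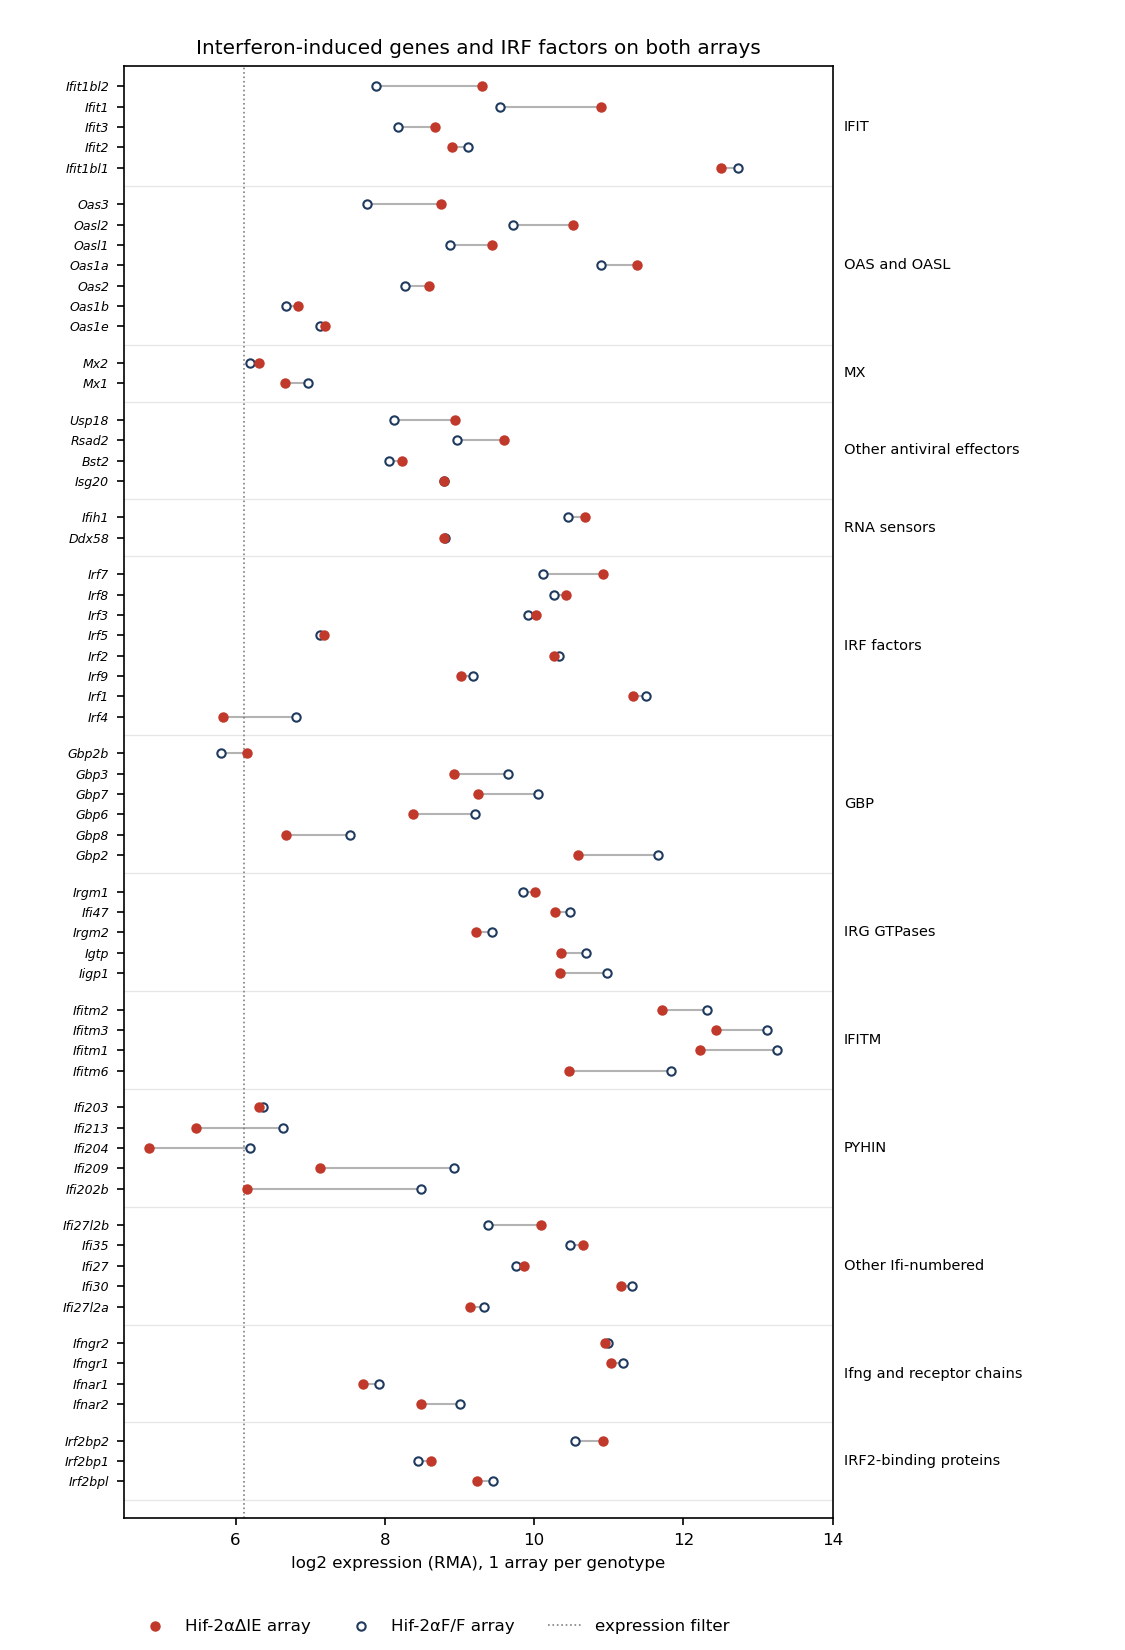
Log2 expression (RMA, horizontal axis) of the 60 members kept, 1 gene per line and grouped by family. Filled points are the ΔIE array, open points the F/F array, and the dotted line is the expression filter of 6.11. ΔIE points lie right of F/F points for all 7 OAS and OASL genes and left of them for all 4 IFITM and all 5 PYHIN genes. Levels of different genes come from different probes and cannot be set against each other.

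A scale for reading these differences comes from genes with more than 1 probe set. In 5110 such genes the difference was taken once from each of the 2 brightest probe sets. The gap between these values had a median of 0.104 and stayed within 0.411 in 95% of genes. This gap measures disagreement between probes on the same arrays and leaves out the variation between mice. Past 0.411, 11 of the 60 members were higher on the ΔIE array, where 8.81% of all genes kept were, and 16 were lower, where 14.3% of all genes kept were. Of the 11 higher, 3 were IFIT, 4 were OAS or OASL genes, 2 were other antiviral effectors, and the others were Irf7 and Ifi27l2b. Of the 16 lower, 5 were GBP, 4 IFITM and 4 PYHIN genes, and the others were Irf4, Iigp1 and Ifnar2.

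**Figure D2:**
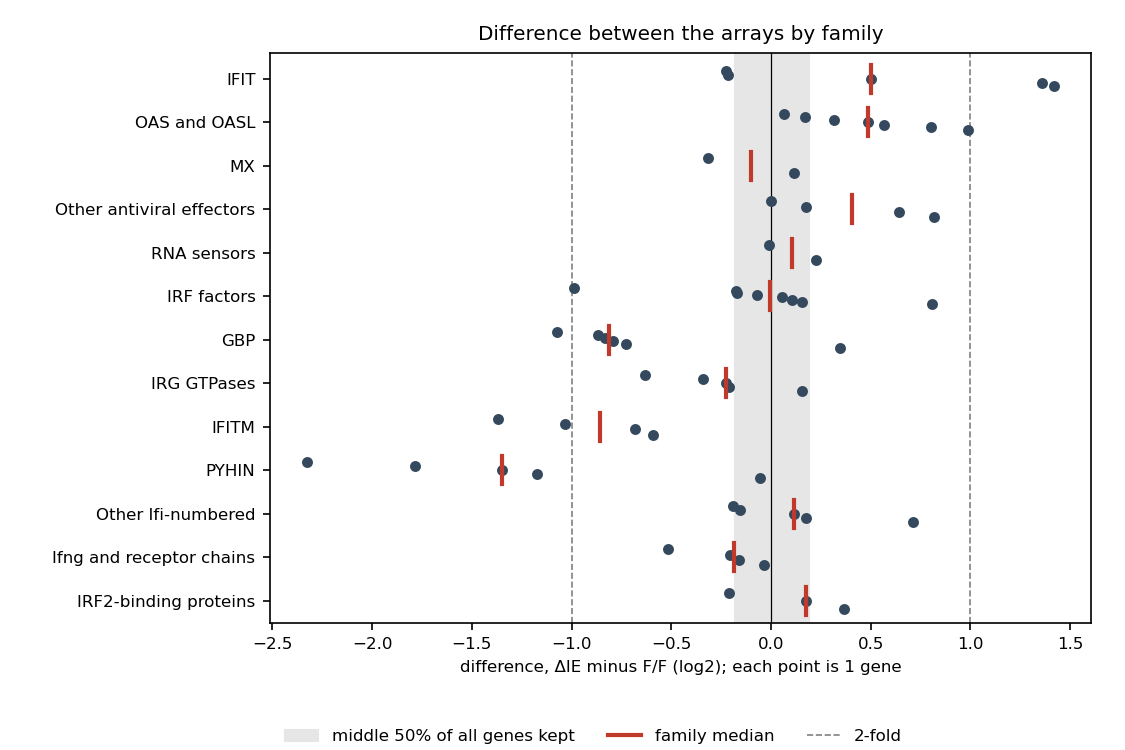
Difference between the arrays (ΔIE minus F/F, log2, horizontal axis) of each kept member, by family. Red bars are family medians, the grey band spans the quartiles of all genes kept (-0.18 to 0.19), and dashed lines mark 2-fold. Medians run from -1.35 for the PYHIN genes to 0.50 for the IFIT genes.

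IFIT proteins bind foreign RNA and block its translation. Ifit1 read 10.90 on the ΔIE array and 9.54 on the F/F array, a difference of 1.36, or 2.56-fold higher in ΔIE. Its head-to-head neighbour Ifit1bl2, a related mouse gene, read 9.31 in ΔIE and 7.89 in F/F, a difference of 1.42. The second probe set of Ifit1bl2 read 6.87 in ΔIE and 6.80 in F/F, so the probes of this gene disagreed and its value is uncertain. Ifit3 read 8.68 in ΔIE and 8.18 in F/F. Ifit2 and Ifit1bl1, in the same chromosome 19 cluster, lay slightly on the other side, with differences of -0.21 and -0.23. The family thus was not uniform: its median was 0.50, but 2 of its 5 genes were below 0.

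OAS enzymes make short oligoadenylates that activate the nuclease RNase L, and the OAS-like proteins are their relatives. All 7 kept members were higher in ΔIE and their median was 0.49, although none reached 2-fold. Oas3 came closest, at 8.75 in ΔIE and 7.77 in F/F, a difference of 0.99. Oasl2 read 10.52 in ΔIE and 9.72 in F/F, a difference of 0.80. Oasl1, whose mouse protein restrains translation of the Irf7 message, read 9.44 in ΔIE and 8.87 in F/F. Oas1a and Oas2 differed by 0.49 and 0.31, and Oas1b and Oas1e by 0.17 and 0.07, within the gap between probe sets. The 3 members under the filter on both arrays, Oas1c, Oas1f and Oas1h, differed by -0.19 to -0.09, which brings the median of all 10 measured to 0.24.

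Among the other antiviral effectors, Usp18, which removes ISG15 from proteins and damps signalling at the type I interferon receptor, read 8.94 in ΔIE and 8.13 in F/F, a difference of 0.82. Rsad2 encodes viperin, which makes a chain-terminating nucleotide that stops viral polymerases. Its brightest probe set read 9.60 in ΔIE and 8.96 in F/F, and the differences of its 3 probe sets ran from 0.64 to 0.97, all higher in ΔIE. Bst2, the gene of tetherin, which holds budding virus at the cell surface, differed by 0.18. Isg20, an exonuclease gene, read 8.79 on both arrays. The sensors of viral RNA were close on the arrays: Ifih1 (MDA5) differed by 0.23 and Ddx58 (RIG-I) by -0.01, with its next probe set at 0.29. Mx1 and Mx2 encode antiviral GTPases, of which Mx1 is known to be defective in C57BL/6 mice, and differed by -0.32 and 0.11 close to the filter.

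Of the 8 IRF genes kept, 4 were above 0 and 4 below, and the median was -0.01; the sign of that median changed with 4 of the alternatives tried. Irf7, itself an interferon-induced gene that drives interferon-α production, was the highest, at 10.92 in ΔIE and 10.12 in F/F, a difference of 0.80. Irf4, which acts in lymphocytes and plasma cells, was the lowest, at 5.83 in ΔIE, under the filter, and 6.81 in F/F. The other IRF genes differed little. Irf3, the sensor-activated factor that starts interferon-β production, differed by 0.11, and Irf9, the DNA-binding partner of the STAT factors, by -0.17. Irf1 and its antagonist Irf2 differed by -0.17 and -0.07, and Irf8, a factor of myeloid and B cells, by 0.15. Irf5, known from macrophage activation, had probe sets that disagreed. The brighter read 7.18 in ΔIE and 7.13 in F/F, and the next 6.49 in ΔIE and 7.42 in F/F. The IRF2-binding proteins, matched only by the letters of their symbols, differed by 0.37 (Irf2bp2), 0.17 (Irf2bp1) and -0.21 (Irf2bpl).

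Guanylate-binding proteins (GBPs) are large GTPases, induced strongly by interferon-γ, that coat and disrupt bacteria and parasite vacuoles. Of 6 kept, 5 were lower on the ΔIE array, and the family median was -0.81. Gbp2 read 10.59 in ΔIE and 11.67 in F/F, 2.10-fold lower in ΔIE, and its second probe set gave nearly the same difference, -1.09. Gbp8, Gbp6, Gbp7 and Gbp3 differed by -0.87, -0.83, -0.79 and -0.73. By the brightest probe sets, these 5 differences lay in a narrow range although the genes form 2 clusters, on chromosomes 3 and 5. The second probe set of Gbp7 differed by -0.87, but that of Gbp6 by -0.46. A probe set that Gbp8 shares with Gbp4, under the filter on both arrays, differed by 0.31. Gbp2b, the only kept GBP gene above 0, read 6.15 in ΔIE and 5.80 in F/F, at the filter. The immunity-related GTPases (IRGs), which are also induced by interferon-γ and act on vacuoles, lay nearer to 0, with a median of -0.22. Iigp1 read 10.35 in ΔIE and 10.98 in F/F, a difference of -0.63, and its second probe set differed by -0.73. Igtp, Irgm2 and Ifi47 differed by -0.34, -0.22 and -0.21, and Irgm1, a regulator of the other IRG proteins, by 0.16. Whether GBP and IRG genes differed from each other was not tested.

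IFITM proteins sit in membranes and hinder the entry of enveloped viruses. The 4 members kept, which lie on chromosome 7, all had lower values in ΔIE, and their median was -0.86. Ifitm6 read 10.47 in ΔIE and 11.84 in F/F, 2.58-fold lower, and Ifitm1 read 12.23 in ΔIE and 13.26 in F/F, 2.05-fold lower. Ifitm3, the best studied of them in influenza infection, differed by -0.68, and Ifitm2 by -0.59. The 3 under the filter on both arrays, Ifitm5, Ifitm7 and Ifitm10, differed by -0.20 to 0.20.

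The PYHIN proteins are named for a pyrin domain and a DNA-binding HIN domain, though not every member carries both. Their mouse genes form a cluster on chromosome 1. Among the families here, this one had the lowest median. Ifi202b read 6.16 on the ΔIE array, just over the filter, and 8.48 on the F/F array, 5.01-fold lower in ΔIE. Ifi209 read 7.13 in ΔIE and 8.92 in F/F, 3.45-fold lower, and its second probe set differed by -2.28. Ifi204 read 4.84 in ΔIE and 6.19 in F/F, and Ifi213 read 5.47 in ΔIE and 6.64 in F/F; both passed the filter through the F/F array alone. Ifi203 read 6.31 in ΔIE and 6.36 in F/F, near the filter, a difference of -0.06. Ifi207, under the filter on both arrays, read 3.70 in ΔIE and 4.70 in F/F. Of the 10 probe sets with several symbols, 6 reached the filter, and 5 of these carry PYHIN symbols. Their differences were -1.12, -1.19, -1.37, -1.39 and -2.42, all lower in ΔIE. Those of -1.12 and -1.19 came from probe sets that carry Ifi203 among other symbols. A further probe set that carries Ifi203 with others, under the filter, read 3.50 on both arrays. The value of Ifi203 is therefore uncertain. Probe sets in this cluster can match several of its genes, so the members are not independent of each other. Among the printed promoters, that of Ifi213 holds an ISRE core beginning 73 bases before the start and that of Ifi202b holds none.

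Of the remaining Ifi-numbered genes, which share a name and no common function, 3 were above 0 and 2 below. Ifi27l2b read 10.09 in ΔIE and 9.38 in F/F, a difference of 0.71, by a probe set of a kind that can match several transcripts. Its neighbours on chromosome 12, Ifi27 and Ifi27l2a, differed by 0.12 and -0.19. Ifi35 differed by 0.18, with 3 probe sets from 0.18 to 0.34, and Ifi30, the gene of a lysosomal thiol reductase used in antigen presentation, by -0.16. Ifi44l was under the filter on both arrays.

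**Figure D3:**
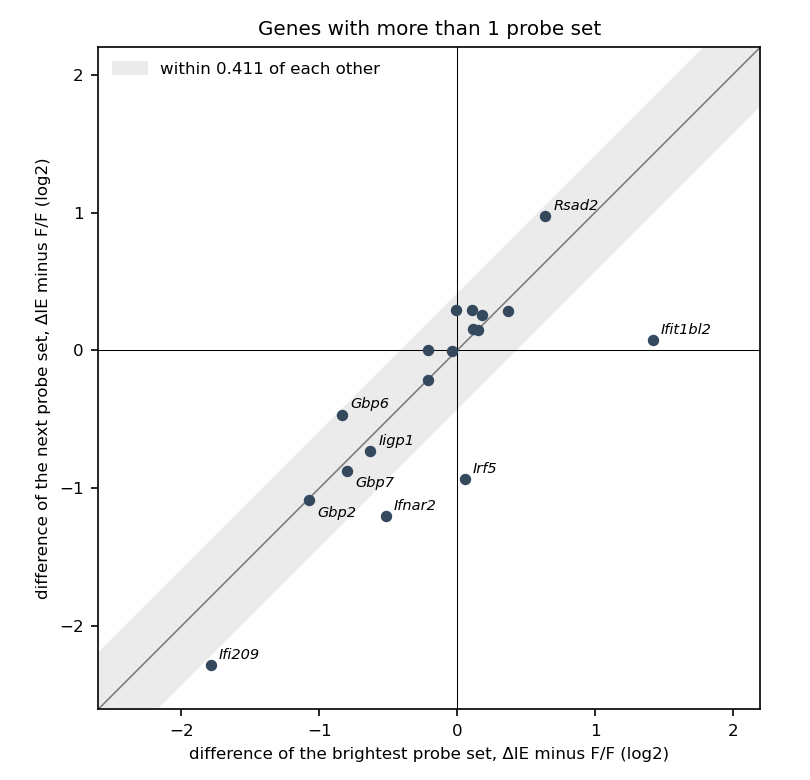
Difference (ΔIE minus F/F, log2) of the brightest probe set, horizontal, against that of the next probe set, vertical, for the 18 kept members whose second probe set also passed the filter. The line marks equal values and the grey band a gap of up to 0.411. Ifit1bl2, Irf5, Ifnar2 and Ifi209 lie outside the band: the size of their difference depends on the probe set, and for Irf5 the sign does too.

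In 18 members a second probe set also passed the filter, and all of a gene's passing probe sets lay on the same side of 0 for 15. The gap between the 2 brightest was a median of 0.143 and passed 0.411 for 4 genes, as the plot of probe set agreement shows. All 4 receptor chains had lower values in ΔIE, of which Ifnar2 alone passed 0.411. Ifngr1 and Ifngr2, the chains of the interferon-γ receptor, read 11.03 and 10.95 in ΔIE, against 11.19 and 10.99 in F/F. Ifnar1, a chain of the type I receptor, differed by -0.21. Ifnar2, the other chain, read 8.484 in ΔIE and 9.001 in F/F by its brightest probe set, a difference of -0.52, and its 3 probe sets ran from -1.20 to -0.52. Ifng itself read 4.09 in ΔIE and 4.81 in F/F, under the filter on both arrays, so its level was not established on either.

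Genes of the pathway outside the symbol rule were taken from fixed lists. Of 22 symbols of interferon ligands, 9 were measured and 8 of these were under the filter on both arrays; the remaining 1, Ifnz, stood at the filter. Receptor and JAK-STAT genes had a median of -0.14 over 13 kept, 5 above 0 and 8 below. The feedback inhibitor gene Socs3 read 9.10 in ΔIE and 10.27 in F/F, 2.26-fold lower, and was the only one past 2-fold. Socs1 and the phosphatase gene Ptpn6 differed by -0.49 and -0.44. Genes of nucleic acid sensing had a median of 0.13 over 15 kept, 9 above 0 and 6 below. Sting1, the adaptor for cytosolic DNA sensing, read 7.03 in ΔIE and 8.33 in F/F, 2.47-fold lower. Next in size were Tlr4, the receptor gene for bacterial lipopolysaccharide, and the adaptor gene Myd88, at -0.49 and -0.40. Ticam1, Tlr3 and Dhx58, which serve RNA sensing, followed on the other side of 0, at 0.39, 0.34 and 0.32.

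A wider list of 47 kept interferon-stimulated genes outside the rule had 25 above 0 and 22 below. Its median was 0.04, against 0.02 over all genes kept and -0.06 over the members. None was 2-fold higher, where 1.15% of all genes kept were, and 4 were at least 2-fold lower, where 5.30% were. The 4 were Slfn1 (3.44-fold) and Slfn2 (2.97-fold), of the schlafen family, Mndal (2.53-fold), a further gene of the PYHIN cluster, and Sp100 (2.10-fold), a nuclear body gene. Interferon-γ-induced chemokine and antigen presentation genes had a median of -0.44, with 21 of 25 below 0, where 46.5% of all genes kept were. Cxcl10, a chemokine gene for T cells, was 3.03-fold lower, the adhesion gene Icam1 2.64-fold, and Nos2, the inducible nitric oxide synthase gene, read 5.52 in ΔIE and 6.60 in F/F. The class II genes H2-Aa and H2-Eb1 differed by -0.99 and -0.88 and the chemokine gene Cxcl9 by -0.92. The 4 above 0 were Ido1 (0.61), Psmb10 (0.29), Psme1 (0.10) and B2m (0.06). The median of this list lay on the same side of 0 as that of the GBP genes. Its quartiles were -0.88 and -0.04, so part of the list lay close to 0.

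**Figure D4:**
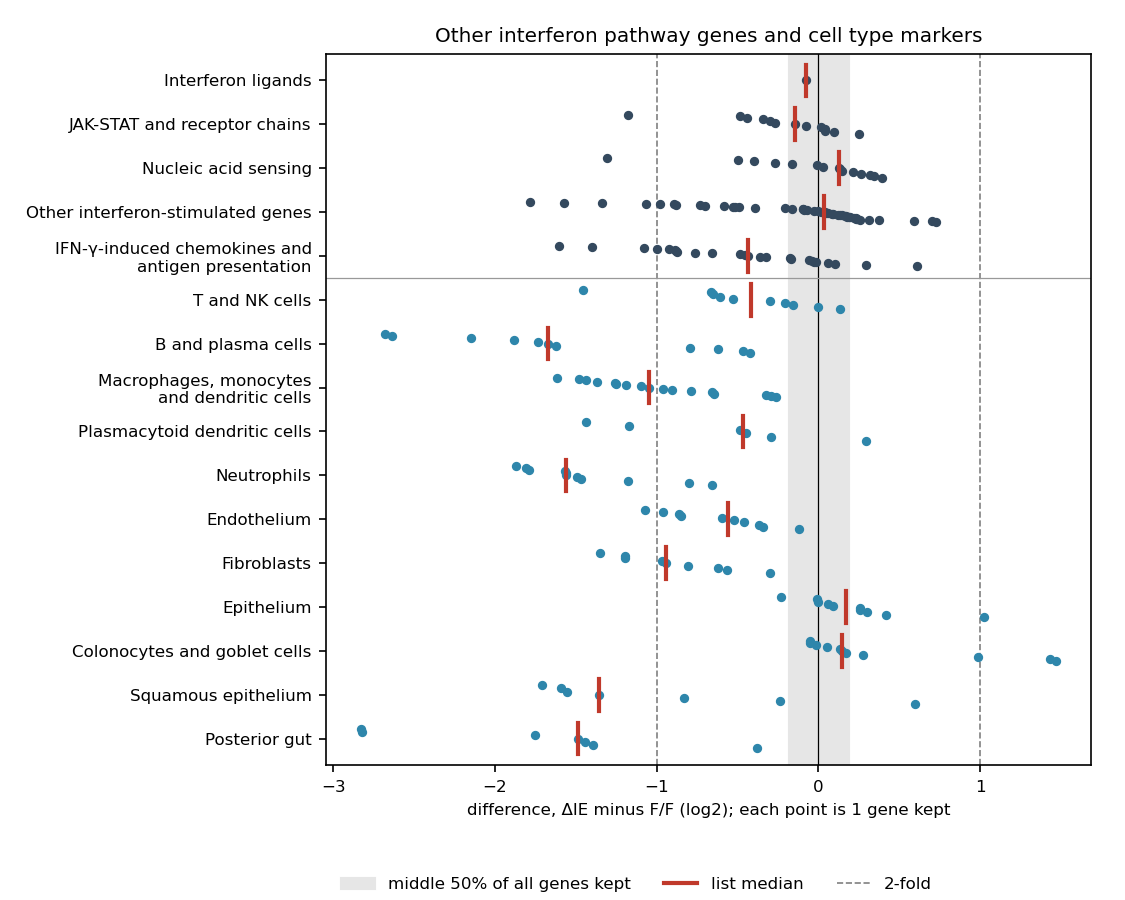
Difference (ΔIE minus F/F, log2, horizontal axis) of kept genes in the lists of interferon pathway genes (upper rows) and cell type or position markers (lower rows). Red bars are list medians, the grey band spans the quartiles of all genes kept, and dashed lines mark 2-fold. Macrophage, neutrophil and B cell markers lie wholly below 0, and epithelial markers mostly above it.

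Markers of immune and stromal cells differed on the same arrays, and the part of these and of the gut position markers in the members' values was not tested. All 17 kept of 20 macrophage, monocyte and dendritic cell markers were lower in ΔIE, with a median difference of -1.04 and a median level of 7.80 in ΔIE and 8.81 in F/F. All 11 kept B and plasma cell markers were lower, with a median of -1.67, and all 11 kept neutrophil markers, with a median of -1.56. Of 18 T and NK cell markers listed, 17 were measured and 10 kept. Those kept had a median of -0.41 and a median level of 6.84 in ΔIE and 7.51 in F/F, with 9 below 0. Of these, Klrk1 and Cd28 passed the filter through the F/F array alone. Under the filter on both arrays, Cd2, Cd5 and Tbx21 were lower in ΔIE, Cd8a was equal, and Ncr1, Eomes and Prf1 were higher. Of all genes kept, 46.5% were below 0. Of plasmacytoid dendritic cell markers, a cell type known for interferon-α production, 5 of 6 kept were below 0 with a median of -0.47, and Siglech read 5.65 in ΔIE and 6.14 in F/F, at the filter. Fibroblast and endothelial markers had medians of -0.94 and -0.56. Epithelial markers had a median of 0.17, with 7 of 10 above 0, and colonocyte and goblet cell markers one of 0.15, with 8 of 11 above 0. Squamous epithelium markers had a median of -1.36, with 6 of 7 kept below 0 and Lor above it, at 0.60. All 7 kept Hox genes of the posterior gut were lower, with a median of -1.49. All the immune marker lists here had medians below 0. Among the members, the medians were 0.50 for IFIT and 0.49 for OAS and OASL genes. Those of the GBP, IFITM and PYHIN genes were -0.81, -0.86 and -1.35.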

How the data were processed

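The deposited values are log2 expression of 45101 probe sets on 2 arrays. The submitters' processing notes name affy and RMA for these log2 values; which versions and which arrays went into the normalization by the authors is not given in these sources. RMA includes quantile normalization, which hides a shift of most genes, and it gives no detection call. Groups came from the genotype label; per the labels' protocols, biotin-labelled RNA was amplified from 250 ng of total RNA. With 1 array per genotype the number of arrays limits the precision, and no test was run. The arrays hold identical values for 1699 probe sets, none of which represents a member.

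Symbols came from the platform annotation paired with the file: 34958 probe sets had 1 symbol, 932 several and 9211 none, and none of the member symbols changed when its Entrez ID was looked up in RefSeq (GRCm38.p6). The 64 control probe sets were left out, and the file itself carries no genome build. A gene took the probe set with the highest mean. Members and lists were chosen with earlier results of these data known. The text names any member, the 4 Cre control probe sets, Epas1, and of each other pathway list up to 6 genes of largest difference and all at 2-fold; the genes above 0 in the interferon-γ list, single cell markers and the promoters printed were chosen after values were seen. Motifs were searched on both strands, and a gene counted once where any of its annotated windows held a match. Genes with several windows therefore had more chances of a match. The scripts were tested on simulated data. Python 3.11.15, numpy 2.4.6, pandas 2.3.3, statsmodels 0.14.6 and matplotlib 3.10.9 were used.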

Additional observations from a re-analysis of the deposited data

How the results depend on the processing

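No paired analysis was possible because each genotype has 1 array, and for the same reason no replicate could be left out. The members' median difference stayed between -0.11 and -0.0009 under the alternatives that give one. The GBP (-0.87 to -0.78), IFITM (-0.92 to -0.59), OAS (0.24 to 0.57) and IFIT (0.0738 to 0.50) medians kept their sign wherever they could be computed, including median centring and lowess correction. The second brightest probe set gave no median for the IFITM or OAS genes. The median of the IRF factors changed sign once the probe sets able to match several transcripts were left out (0.09), with the second brightest probe set (0.15), with the filter raised to the 75th percentile (0.02) and with both arrays at the filter (0.06); those of the MX genes (0.11) and the other Ifi-numbered genes (-0.16) did so in the first of these. At 1.5-fold, 8 members were higher and 15 lower, where 520 and 1267 of the 11899 genes kept were. At 3-fold, 0 members were higher and 2 lower, where 20 and 177 of all genes kept were. Averaging a gene's probe sets left 1 member at least 2-fold higher, Ifit1, where 106 of 10516 genes kept were, and put Ifit1bl2 at 0.75. Averaging also turned the sign of Irf5 (-0.44) and Ddx58 (0.23), and both centrings that of Isg20 (-0.02 and -0.03). The second brightest probe set exists above the filter for 18 members, fewer genes by construction. Of these members 0 were 2-fold higher and 3 lower, where 48 and 186 of the 5110 genes with such a probe set were. They lay 8 above and 9 below 0. The medians were 0.0738 for IFIT, 0.97 for the antiviral effectors, -0.73 for IRG and -2.28 for PYHIN genes, each from 1 gene. The PYHIN median came to -2.06 under the raised filter and to -1.79 with both arrays at the filter, both of which drop its dimmer genes.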

Other observations

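The genes around the PYHIN cluster on chromosome 1 were looked at after its values had been seen, by their order on GRCm38.p6. Aim2, the PYHIN gene at its edge, which encodes the DNA sensor of an inflammasome, was under the filter on both arrays and read 5.94 in ΔIE and 5.80 in F/F. Mndal, within the cluster, read 8.34 in ΔIE and 9.68 in F/F. Of the 15 protein-coding genes before the cluster 3 were kept: Ackr1, a chemokine receptor gene of venular endothelium and red cells, read 7.76 in ΔIE and 8.81 in F/F, while Cadm3 and Dusp23 differed by 0.14 and 0.28. Of the 15 after it 1 was kept, Mptx1, the gene of a mucosal pentraxin, which read 3.87 in ΔIE, far under the filter, and 9.31 in F/F.

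Lgals9 and Lgals3bp, which encode a galectin and a galectin-binding protein, were the highest of the interferon-stimulated genes outside the symbol rule and were picked out after their values had been seen. Lgals9 read 11.57 in ΔIE and 10.84 in F/F, and Lgals3bp 11.31 in ΔIE and 10.61 in F/F.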
